A study of Mus musculus with 18 samples.

Results

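The netrin and repulsive guidance molecule (RGM) receptors and their ligands were followed in the cortex of mice lacking *Nova2* or *Nova1*. The set holds 10 genes, taken by their symbols: the receptors *Dcc*, *Neo1*, *Unc5a*, *Unc5b*, *Unc5c* and *Unc5d*, and the ligands *Ntn1*, *Ntn4*, *Rgma* and *Rgmb*. All 10 were found among the 23038 gene symbols of the count table, and 9 of the 1991 events of the alternative splicing table belong to the set, 8 to *Neo1* and 1 to *Dcc*. RNA was taken at embryonic day 18.5 (E18.5) from mice of the CD1 strain background, in 4 groups of 3 cortices each: *Nova2-/-*, wild-type from *Nova2* litters, *Nova1-/-*, and wild-type from *Nova1* litters. The labels do not name the litter of a wild-type mouse: it was taken from the mouse's number, since wild-type mice 4 to 6 also gave midbrain and hindbrain, where *Nova1-/-* is the only knockout. Splicing values were also given for midbrain and hindbrain of *Nova1-/-* mice, while read counts of these regions were not analysed here. Both knockouts are germline deletions, so the protein was missing throughout development in every cell that normally makes it. The *Nova2* allele carries an IRES-Cre cassette in the first coding exon, and counts over the whole gene include exons outside that cassette.

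NOVA1 and NOVA2 are neuronal RNA-binding proteins that control alternative splicing through YCAY motifs, where Y is C or T in the DNA. Netrins are secreted, laminin-related cues for growing axons. DCC and its relative neogenin, the product of *Neo1*, are transmembrane receptors through which netrin 1 attracts axons, and DCC is needed for axons to cross the midline of the forebrain. The UNC5 receptors mediate repulsion from netrin, alone or together with DCC. Neogenin also binds the RGM proteins, membrane-anchored repulsive cues that act as co-receptors of bone morphogenetic proteins (BMPs).

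The targeted genes were read first as a check of the labels. *Nova1* stood at no more than 0.21 CPM, the count scaled by the total of each library, in the 3 *Nova1-/-* mice, against 41.4 to 75.8 CPM in their wild-type littermates. *Nova2* stood at 17.0, 17.9 and 21.6 CPM in the *Nova2-/-* mice and at 31.6, 31.5 and 40.8 CPM in their wild-type littermates, a log2 fold change of -0.87 (SE 0.14, adjusted p = 0.0373, edgeR's quasi-likelihood test). Total counts ranged from 16518172 to 31362018 per mouse. The second wild-type mouse of the *Nova2* litters had the lowest total and yet the most genes with a count, 21791, against 18397 to 19396 in the others. Cortical neuron markers summed to between 3266 and 4074 CPM per mouse, with none of the 10 at 0. Meningeal markers, which label the membranes around the brain, summed to 320, 424 and 750 CPM in wild-type mice from *Nova2* litters, and to between 891 and 1341 CPM in the other 9 mice. The third wild-type mouse of the *Nova2* litters, with a sum of 750 CPM, stood apart from the other two, so calls and values of the 10 genes that it decides are given with and without it. The share of expected counts that were not whole numbers was 7.48% to 11.7% in the 6 mice of the *Nova2* litters and 18.6% to 20.02% in the 6 mice of the *Nova1* litters, so the sets of litters also differed in this measure.

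The largest splicing differences in the set lie over a span of *Neo1* that holds 1 annotated exon between its outer exons. The exon lies at chr9:58732277-58732435 on the minus strand (mm9), within the coding sequence, and is 159 nt long. It is exon 26 of 29 in the annotated transcript Neo1-201 and exon 25 of 28 in a further annotated transcript, and another one of 28 exons lacks it. It starts after 1 base of codon 1279 of Neo1-201 and adds 53 codons. The reading frame continues through the exon (1492 codons in all), and without it the coding sequence has 1439 codons with no earlier stop. By position along the transcript it falls in the cytoplasmic part of neogenin, the part that signals inside the cell. The exon and 200 nt of intron on either side are shown because 6 of the 8 *Neo1* events span them. Capitals mark YCAY motifs (CCAC or CCAT or TCAC or TCAT, overlapping matches included), read on the strand of the transcript.
Neo1 upstream intron, chr9:58732436-58732635: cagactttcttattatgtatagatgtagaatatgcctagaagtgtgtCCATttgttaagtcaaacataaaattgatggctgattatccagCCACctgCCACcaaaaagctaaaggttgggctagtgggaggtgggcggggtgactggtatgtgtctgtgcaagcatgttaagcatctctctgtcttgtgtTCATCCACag
Neo1 cassette exon, chr9:58732277-58732435: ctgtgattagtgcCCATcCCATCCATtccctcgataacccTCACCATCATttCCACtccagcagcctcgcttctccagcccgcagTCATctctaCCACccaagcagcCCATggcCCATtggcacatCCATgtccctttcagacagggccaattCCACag
Neo1 downstream intron, chr9:58732077-58732276: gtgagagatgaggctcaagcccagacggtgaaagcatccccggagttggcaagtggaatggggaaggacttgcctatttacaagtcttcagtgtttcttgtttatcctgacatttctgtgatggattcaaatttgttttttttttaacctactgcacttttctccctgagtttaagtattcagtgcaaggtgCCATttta

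The *Neo1* exon held 13 YCAY motifs within its 159 nt, of which 7 start within its first 53 nt. The 200 nt of intron before it held 5 motifs, and the last of these starts 6 nt before the exon. The 200 nt after it held 1 motif. Of 982 annotated internal exons of exactly 159 nt in protein-coding transcripts, this exon alone reached 13 motifs, and the median was 3. The flanks did not stand out in the same way. At least 5 motifs were found in the upstream flanks of 25.9% of 177780 internal exons, and at least 1 in the downstream flanks of 94.4%. On the other strand, both flanks together held 11 motifs, a number reached by 15.96% of internal exons. The authors required a YCAY motif within a NOVA binding cluster near each event of the table, so the presence of motifs was part of how the event was chosen.

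**Figure D1:**
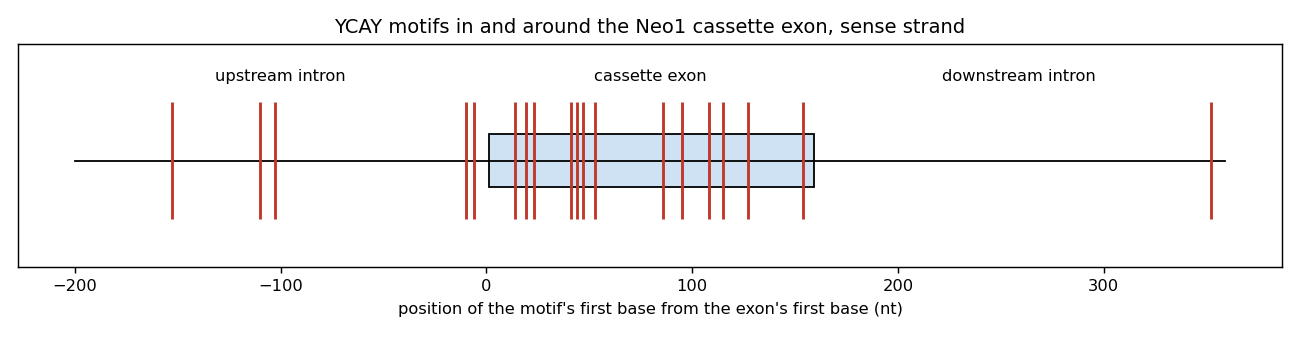
YCAY motifs in and around the *Neo1* cassette exon. The x axis gives the distance in nt from the first base of the exon, each red line marks the first base of a motif on the transcript's strand, and the box is the exon of 159 nt. The exon carries 13 motifs, the upstream 200 nt carry 5 and the downstream 200 nt carry 1.

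Events over the *Neo1* exon had more inclusion in *Nova2-/-* cortex. Inclusion is given as *Δ*I, the inclusion fraction in wild-type minus that in knockout, so a negative value means more inclusion in the knockout. Of the 3 cassette events that span this exon, *Δ*I in *Nova2-/-* cortex was -0.585, -0.584 and -0.510. The 3 tandem cassette events over the same span, chr9:58728399-58736300, gave -0.598 each, although the annotation holds only the 1 exon within that span. These 6 events share the span, so they are not read as 6 separate changes. Only the span of each event was used, so which exon or form of it each event counts was not settled here. Among all 1991 events they ranked between 66 and 163 by size of *Δ*I. The authors chose the events of the table on the *Nova2-/-* values, at a size of at least 0.1, and gave 1 value per comparison, so these values are a description with no spread between mice and no known depth.

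In *Nova1-/-* mice the values of the same 6 *Neo1* events were smaller. In *Nova1-/-* cortex, *Δ*I of the 6 events was between 0.00830 and 0.0315, all below the median size of 0.0341 over all events. In *Nova1-/-* midbrain and hindbrain, *Δ*I of the 6 events lay between -0.0486 and -0.123, all with the sign of *Nova2-/-* cortex and all above the median size of 0.0378 over all events. Only the event at -0.123 reached a size of 0.1 there, so 1 of the 9 events of the set passed this size, against 15.9% of all events. In *Nova1-/-* cortex none of the 9 events did, against 11.1% of all events. The difference between the knockouts could not be tested, since the values carry no replicates.

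The other 2 *Neo1* events were smaller. An event of mutually exclusive exons over chr9:58725835-58736300, a span that includes the same exon, had a *Δ*I of -0.239 with *Nova2* absent. With *Nova1* absent it was -0.0203 for cortex, and -0.0679 for midbrain and hindbrain. An alternative 3' splice site at chr9:58778763-58803886, far upstream in the part of the gene that encodes the extracellular region, had -0.120, 0.00724 and 0.0361 in the same order. For these kinds of event the sources used here do not say which form counts as included, so only the size is read.

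*Dcc* had 1 event, an alternative 3' splice site at the start of exon 17. Exon 17 runs over chr18:71538309-71538541 (233 nt) in transcript Dcc-001 and over chr18:71538309-71538481 (173 nt) in Dcc-002, both on the minus strand of mm9. The forms differ by 60 nt, or 20 codons, in the extracellular part of the receptor that holds its fibronectin domains, and the coding sequences have 1447 and 1427 codons, with no earlier stop in either. *Δ*I was 0.202 in *Nova2-/-* cortex, and 0.0677 (cortex) and 0.00839 (midbrain and hindbrain) in *Nova1-/-* mice. The *Nova2-/-* value ranked 1109 of 1991 by size. The 60 nt between the splice sites held 2 YCAY motifs. The 200 nt of intron before the longer form held 6, a number reached by 14.1% of internal exons, and the 200 nt after the exon held 2, reached by 80.4%. No event of *Unc5a*, *Unc5b*, *Unc5c*, *Unc5d*, *Ntn1*, *Ntn4*, *Rgma* or *Rgmb* is in the table, which lists only events that passed the authors' thresholds in *Nova2-/-* cortex.

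**Figure D2:**
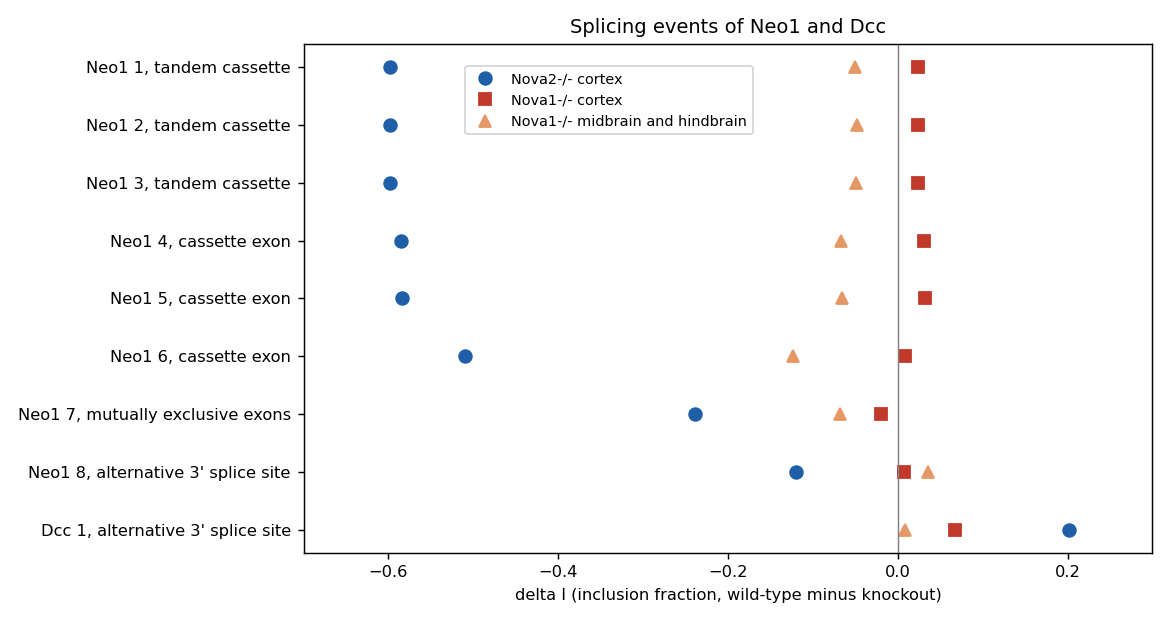
Splicing events of *Neo1* and *Dcc*. Each row is 1 of the 9 events with its type, the x axis gives *Δ*I (inclusion fraction in wild-type minus knockout, no unit), and the 3 symbols stand for *Nova2-/-* mice (cortex) and for *Nova1-/-* mice (cortex, or midbrain and hindbrain), with 1 pooled value each. The 6 upper *Neo1* events lie between -0.598 and -0.510 in *Nova2-/-* cortex and between 0.00830 and 0.0315 in *Nova1-/-* cortex.

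All 10 genes were expressed in every cortex and passed the filter on low counts in each comparison, with expected counts between 137 (lowest, *Ntn4*) and 21523 (highest, *Neo1*). Levels of different genes were compared per length, as CPM per kilobase of annotated exon (RPKM). *Neo1* was the most abundant, at 78.6 ± 8.34 RPKM (SD over 12 mice). *Dcc* followed at 26.4 ± 2.54 RPKM, *Unc5d*, the most abundant UNC5 receptor, at 17.0 ± 1.31 RPKM, and *Rgmb* at 10.2 ± 0.525 RPKM. The ranges of these 4 genes over the 12 mice did not overlap with each other or with any gene further down. Below them stood *Unc5c* at 7.14 ± 0.672, *Rgma* at 5.59 ± 0.662, *Unc5a* at 4.26 ± 0.508, *Ntn1* at 3.99 ± 0.641, *Unc5b* at 2.21 ± 0.853 and *Ntn4* at 2.04 ± 0.258 RPKM. From *Unc5c* on, each gene's range overlapped with that of the next.

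The genes lie on 9 chromosomes of mm9, and *Unc5b* and *Ntn4* share chromosome 10. The receptors are *Dcc* at chr18:71418392-72510723, *Neo1* at chr9:58722486-58884248, *Unc5a* at chr13:55050772-55107379, *Unc5b* at chr10:60225358-60294329, *Unc5c* at chr3:141128528-141497888 and *Unc5d* at chr8:29757189-30329810. The ligands are *Ntn1* at chr11:68022866-68214325, *Ntn4* at chr10:93103426-93209952, *Rgma* at chr7:80520406-80564785 and *Rgmb* at chr17:15941626-15963550.

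**Figure D3:**
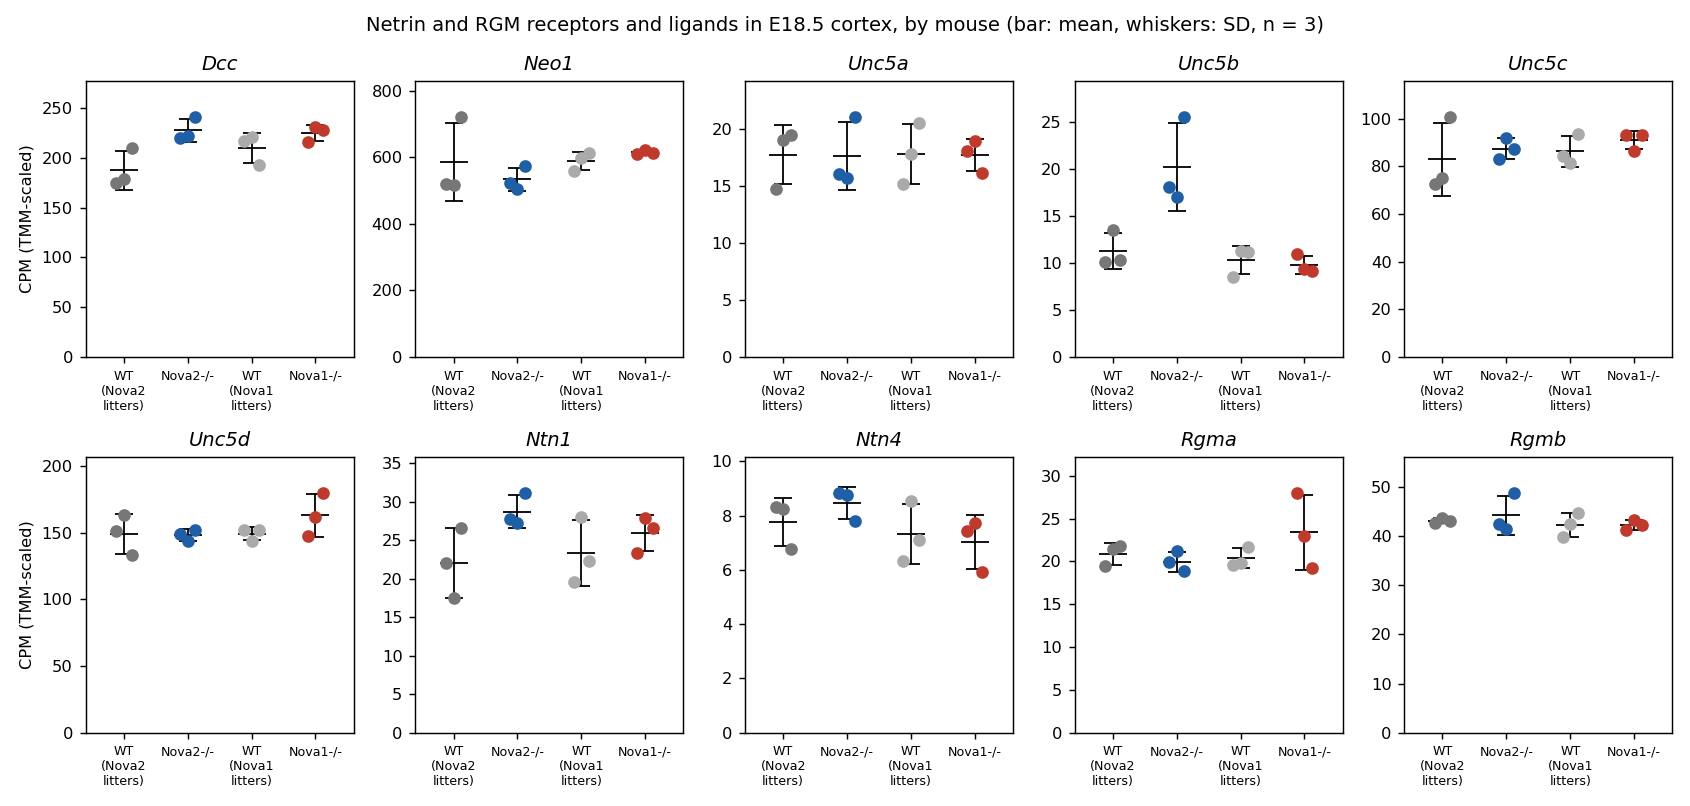
Level of each of the 10 genes by mouse. The y axes give CPM and start at 0, each point is 1 mouse, and the bars and whiskers are the mean and SD of 3 mice in each of the 4 groups. *Unc5b* is the only gene whose 3 *Nova2-/-* mice lie above all 9 others, between 17.0 and 25.5 CPM against 8.55 to 13.5 CPM.

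In *Nova2-/-* cortex, none of the 10 genes passed an adjusted p below 0.05 by edgeR's quasi-likelihood test, against 1.06% of the 15691 genes tested. At an unadjusted p below 0.05 there were 3, *Dcc*, *Unc5b* and *Ntn1*, all higher in *Nova2-/-* mice, against 19.2% of all genes. The same 3 were the genes whose groups of 3 mice did not overlap, which held for 26.4% of all genes. The median log2 fold change of the 10 genes was 0.07, beside 0.0092 over all genes, and their median size was 0.11, beside 0.16 over all genes.

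Among the receptors that respond to netrin by attraction, *Dcc* stood at 174, 178 and 210 CPM in wild-type mice from *Nova2* litters and at 220, 222 and 241 CPM in the *Nova2-/-* mice. All 3 *Nova2-/-* mice were above all 3 wild-type mice, though the third wild-type mouse came close to them. The log2 fold change was 0.29 (SE 0.088, adjusted p = 0.140, edgeR's quasi-likelihood test), and 0.38 without that mouse, where the gene was called (adjusted p = 0.00940). In the *Nova1* litters *Dcc* stood at 217, 221 and 193 CPM in wild-type and at 216, 231 and 228 CPM in *Nova1-/-* mice, so the groups overlapped. The range of the *Nova2-/-* mice overlapped with that of the *Nova1* litters, of either genotype.

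*Neo1* total abundance was not higher in *Nova2-/-* mice beyond the spread between mice. It stood at 521, 517 and 721 CPM in wild-type mice from *Nova2* litters and at 524, 504 and 572 CPM in *Nova2-/-* mice, and the third wild-type mouse was the highest of all 12. The log2 fold change was -0.12 (SE 0.13, adjusted p = 0.653, edgeR's quasi-likelihood test), and it was 0.06 without that mouse. In the *Nova1* litters *Neo1* stood at 558, 598 and 611 CPM in wild-type and at 609, 622 and 613 CPM in *Nova1-/-* mice. The counts cover the gene as a whole and do not separate transcripts with and without the exon.

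*Unc5b* had the largest difference of the set. UNC5B is a receptor of neurons and of the growing tips of blood vessels. *Unc5b* stood at 10.1, 13.5 and 10.3 CPM in wild-type mice from *Nova2* litters, and at 18.1, 17.0 and 25.5 CPM in the *Nova2-/-* mice. All 3 *Nova2-/-* mice were above all other mice, since the *Nova1* litters had 8.55, 11.2 and 11.1 CPM in wild-type and 10.9, 9.37 and 9.12 CPM in *Nova1-/-* mice. The log2 fold change in *Nova2-/-* was 0.86 (SE 0.19, a fold of 1.81), and the adjusted p of 0.0774 by edgeR's quasi-likelihood test missed the threshold. Other processing called it: the adjusted p was 0.00133 with DESeq2, which called 5.39% of all genes, and 0.0101 with all 12 mice in one fit, which called 8.23%. DESeq2 called 1 of the 10 genes, *Unc5b*, and the fit of all 12 mice called 2, *Unc5b* and *Dcc* (adjusted p = 0.0431).

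The summed level of endothelial markers was higher in the same mice as *Unc5b*, through some of its members. The 10 markers summed to 239, 241 and 289 CPM in wild-type mice from *Nova2* litters and to 345, 337 and 359 CPM in the *Nova2-/-* mice, a ratio of means of 1.35, against 1.79 for *Unc5b*. In the *Nova1* litters the sums were 247, 243 and 244 CPM in wild-type and 244, 233 and 224 CPM in *Nova1-/-* mice. None of the 10 markers was at 0 in any mouse. In *Nova2-/-*, 2 of the 10 passed an adjusted p below 0.05, both higher, against 1.06% of all genes. They were *Kdr*, a receptor of vascular endothelial growth factor (log2 fold change 0.78, SE 0.11, adjusted p = 0.0239, edgeR's quasi-likelihood test), and *Slc2a1*, a glucose transporter (0.57, SE 0.084, adjusted p = 0.0321). By the same test, wild-type mice of the *Nova1* litters were lower in *Slc2a1* than those of the *Nova2* litters (-0.46, SE 0.094, adjusted p = 0.0405). *Kdr* was not called there (0.25, SE 0.091). Over all 12 cortices the change of *Kdr* differed between the knockouts (1.14, SE 0.15, adjusted p = 0.00193), and that of *Slc2a1* was not called (0.21, SE 0.14). In *Nova2-/-*, *Cldn5*, a tight junction gene that defines brain endothelium, had a log2 fold change of 0.07 (SE 0.15). *Tie1* stood at 0.07, *Emcn* at 0.13, *Tek* at 0.29 and *Esam* at -0.11. The other 5 markers reached an unadjusted p below 0.05, against 19.2% of all genes. Per 100 CPM of endothelial markers, *Unc5b* stood at 4.22, 5.62 and 3.55 in wild-type and at 5.24, 5.05 and 7.12 in *Nova2-/-* mice. On this scale the groups overlapped, through the second wild-type mouse, and the ratio of means was 1.30. In the *Nova1* litters the values on this scale lay between 3.46 and 4.62. Mural cell markers, which label the cells around vessels, also summed higher, to between 163 and 172 CPM in the *Nova2-/-* mice against at most 142 CPM in the other 9. Of these 6 markers, 1 was called, against 1.06% of all genes. It was *Abcc9*, a channel subunit of pericytes (0.55, SE 0.10, adjusted p = 0.0496, edgeR's quasi-likelihood test). The others, not called, were *Acta2* at 0.93, *Pdgfrb* at 0.60, *Cspg4* at 0.46, *Rgs5* at 0.21 and *Kcnj8* at -0.03. None of the 6 mural cell markers was at 0 in any mouse. Meningeal markers summed to 1235, 1122 and 1341 CPM in the *Nova2-/-* mice, above their littermates. In the wild-type mice of the *Nova1* litters they summed to 1018 to 1260 CPM, with *Unc5b* at no more than 11.2 CPM. The part of vascular or meningeal RNA in the *Unc5b* difference was not tested. In bulk tissue, more cells of a type and more RNA per cell cannot be told apart.

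**Figure D4:**
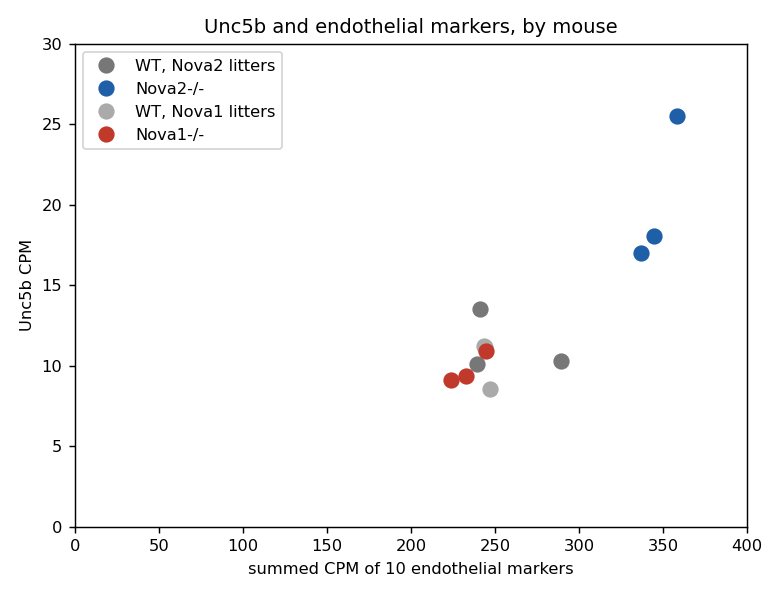
*Unc5b* and endothelial markers by mouse. The x axis gives the summed CPM of 10 endothelial markers, the y axis *Unc5b* CPM, both from 0, and each point is 1 of 12 mice, coloured by group. The 3 *Nova2-/-* mice lie at 337 to 359 CPM of markers and 17.0 to 25.5 CPM of *Unc5b*, above the other 9 on both axes.

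Of the other UNC5 receptors, none was called in *Nova2-/-* cortex with all mice, and *Unc5c* was called without the third wild-type mouse. *Unc5d*, which is expressed in upper-layer neurons, stood at 151, 163 and 133 CPM in wild-type mice from *Nova2* litters and at 149, 144 and 152 CPM in *Nova2-/-* mice, with a log2 fold change of 0.0038 (SE 0.082). *Unc5c* stood at 72.7, 75.2 and 101 CPM in wild-type and at 83.0, 91.9 and 87.3 CPM in *Nova2-/-* mice, with a log2 fold change of 0.09 (SE 0.13). For *Unc5c*, the third wild-type mouse was above all *Nova2-/-* mice and the others were below them, and without that mouse the log2 fold change was 0.26 (adjusted p = 0.0490, edgeR's quasi-likelihood test). *Unc5a*, found between 14.8 and 21.1 CPM over all 12 mice, had a log2 fold change of 0.0026 (SE 0.16).

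Of the ligands, *Ntn1*, which encodes netrin 1, stood at 22.1, 17.5 and 26.6 CPM in wild-type mice from *Nova2* litters and at 27.8, 27.2 and 31.2 CPM in *Nova2-/-* mice. The groups did not overlap, but the gap between them was smaller than the spread within the wild-type group. The log2 fold change was 0.39 (SE 0.15, adjusted p = 0.220, edgeR's quasi-likelihood test), and 0.55 without the third wild-type mouse (adjusted p = 0.0315). In the *Nova1* litters *Ntn1* stood at 19.6, 28.1 and 22.3 CPM in wild-type and at 23.3, 27.9 and 26.6 CPM in *Nova1-/-* mice. *Ntn4*, a netrin of basement membranes, lay between 5.91 and 8.85 CPM in all 12 mice, with a log2 fold change of 0.14 (SE 0.14) in *Nova2-/-*. *Rgma* and *Rgmb*, both RGM ligands of neogenin, lay between 18.9 and 28.0 CPM and between 39.9 and 48.8 CPM, with log2 fold changes of -0.05 (SE 0.10) and 0.05 (SE 0.094).

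**Figure D5:**
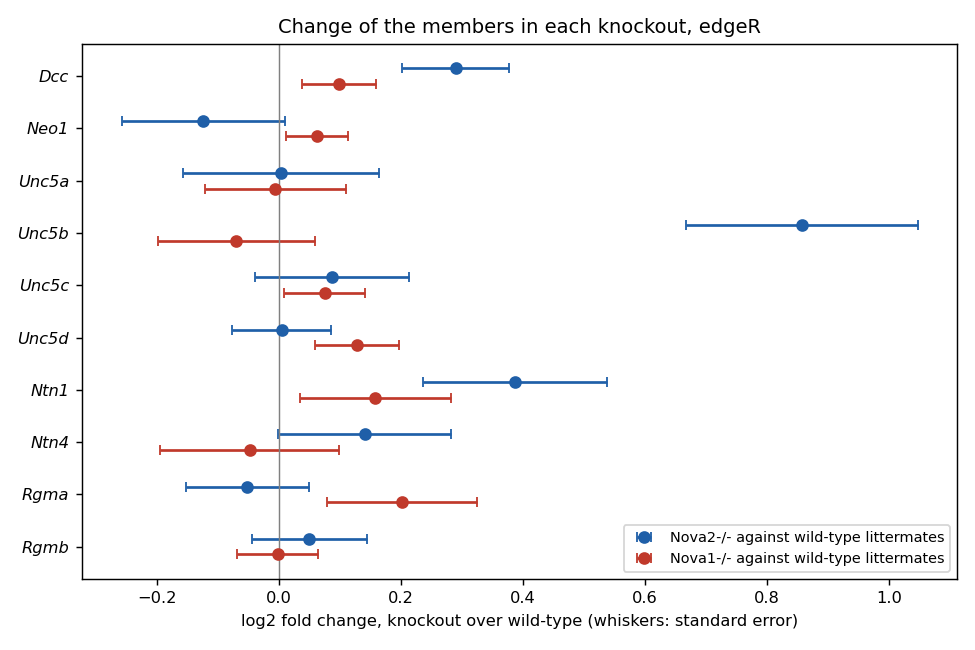
Change of the 10 genes in each knockout. The x axis gives the log2 fold change of knockout over wild-type littermates from edgeR, the whiskers are standard errors, and blue and red points stand for *Nova2-/-* and *Nova1-/-* cortex. *Unc5b* in *Nova2-/-* lies at 0.86 and all *Nova1-/-* points lie between -0.07 and 0.20.

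The count of 0 in *Nova2-/-* depended on 1 mouse, besides the choice of test and fit given for *Unc5b*. Without the third wild-type mouse of the *Nova2* litters, 4 of the 10 genes passed an adjusted p below 0.05, all higher in *Nova2-/-*, against 9.03% of all genes. They were *Dcc* (adjusted p = 0.00940), *Unc5b* (0.0452), *Unc5c* (0.0490) and *Ntn1* (0.0315), by edgeR's quasi-likelihood test. Leaving out any other mouse called none.

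In *Nova1-/-* cortex none of the 10 genes passed an adjusted p below 0.05 by edgeR's quasi-likelihood test or by DESeq2, against 0.0126% of 15901 genes by edgeR and 0.214% by DESeq2. None passed an unadjusted p below 0.05 either, against 7.44% of all genes. Log2 fold changes ran from -0.07 for *Unc5b* (SE 0.13) to 0.20 for *Rgma* (SE 0.12). *Rgma* stood at 19.5, 19.8 and 21.7 CPM in wild-type and at 28.0, 22.9 and 19.2 CPM in *Nova1-/-* mice, so its difference came from the first *Nova1-/-* mouse and the groups overlapped. *Unc5d* stood at 152, 144 and 152 CPM in wild-type and at 148, 162 and 180 CPM in *Nova1-/-* mice, with a log2 fold change of 0.13 (SE 0.069).

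Whether the *Nova2-/-* change differed from the *Nova1-/-* change was tested over all 12 cortices. None of the 10 genes passed an adjusted p below 0.05 by edgeR's quasi-likelihood test, against 1.83% of 16210 genes, and 1, *Unc5b*, passed an unadjusted p below 0.05, against 18.2%. The difference in *Unc5b* was 0.92 on the log2 scale (SE 0.24, adjusted p = 0.0700), from 0.86 in *Nova2-/-* and -0.07 in *Nova1-/-*. DESeq2 called it at an adjusted p of 0.0115, as it did 5.25% of all genes. It was also called, at 0.0448, without the second wild-type mouse of the *Nova2* litters, where 1.79% of all genes were called. The difference in *Dcc* was 0.18 (SE 0.11) and that in *Neo1* was -0.20 (SE 0.15).

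The wild-type mice of the *Nova1* litters were also compared with those of the *Nova2* litters, since their genotype is the same. They differ in litter, as taken from their numbers, and in the share of counts that were not whole, given above. None of the 10 genes passed an adjusted p below 0.05 by edgeR's quasi-likelihood test or by DESeq2, against 3.03% of 15918 genes by edgeR and 8.37% by DESeq2, and none passed an unadjusted p below 0.05, against 21.1%. The largest difference was that of *Dcc*, 0.17 higher in the *Nova1* litters on the log2 scale (SE 0.092, adjusted p = 0.319). Without the third wild-type mouse of the *Nova2* litters 3 of the 10 genes were called, against 22.3% of all genes, all higher in the *Nova1* litters: *Dcc* at 0.27, *Unc5c* at 0.24 and *Neo1* at 0.20. This comparison shares its Nova2-litter mice with that of *Nova2-/-*.

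Another 74 genes of the pathway were listed by role, and 72 were tested (*Ntn5* and *Hfe2* fell below the filter). None passed an adjusted p below 0.05 in *Nova2-/-*, in *Nova1-/-* or in the difference between the knockouts by edgeR's quasi-likelihood test, and 1 did between the wild-type groups. Without the third wild-type mouse of the *Nova2* litters, 11 passed in *Nova2-/-*, against 9.03% of all genes. Between the wild-type groups 25 did, against 22.3%. In the difference 10 passed, and the share of all genes there is not given here. At an unadjusted p below 0.05 there were 14 in *Nova2-/-* (19.4%, against 19.2% of all genes), 5 in *Nova1-/-* (6.94%, against 7.44%), 21 in the difference (29.2%, against 18.2%) and 21 between the wild-type groups (29.2%, against 21.1%). DESeq2 called 3, 0, 6 and 13, in the same order, where it called 5.39%, 0.214%, 5.25% and 8.37% of all genes.

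By role, the *Nova2-/-* counts at an unadjusted p below 0.05 were 2 higher and 1 lower of 8 other receptors and co-receptors, 4 higher and 3 lower of 28 genes of netrin receptor signalling, and 2 higher of 17 genes of RGM receptor signalling. There were 2 lower of 11 genes of receptor shedding and dependence-receptor signalling, and none of the 8 other ligands. The smallest p belonged to *Mcam*, an adhesion receptor of vessels that binds netrin 1 (log2 fold change 0.58, SE 0.12, adjusted p = 0.0634, edgeR's quasi-likelihood test). Next came *Dock1*, an activator of Rac downstream of DCC (0.39, SE 0.096, adjusted p = 0.0911), and *Gpc3*, a glypican that binds UNC5 receptors (0.97, SE 0.25, adjusted p = 0.106). Each was higher in all 3 *Nova2-/-* mice than in their wild-type littermates, and the groups did not overlap for 26.4% of all genes. Against the same littermates, *Dock1* and *Gpc3* were also higher in wild-type mice of the *Nova1* litters (0.36, SE 0.086, and 0.78, SE 0.22). *Mcam* was not (-0.12, SE 0.12). The sum of meningeal markers, given above, was also higher in all 3 *Nova2-/-* mice than in their littermates. Of its 16 markers, 3 were called, against 1.06% of all genes. The part of meningeal RNA in these differences was not tested.

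In *Nova1-/-* the smallest p among the 72 genes belonged to *Ntng2*, a netrin G ligand tied to the membrane (0.56, SE 0.15, adjusted p = 0.435, edgeR's quasi-likelihood test), followed by *Trio* (-0.15, SE 0.055) and *Elmo2* (-0.14, SE 0.057), both of which promote Rac activation. Their wild-type littermates, against wild-type mice of the *Nova2* litters, were lower in *Ntng2* (-0.85, SE 0.21). They were higher in *Trio* (0.15, SE 0.065) and *Elmo2* (0.29, SE 0.076), with none of these differences called. In the difference between the knockouts *Trio* led (0.33, SE 0.080, adjusted p = 0.0525), before *Mcam* (0.61, adjusted p = 0.0580) and *Dock1* (0.43, adjusted p = 0.0647). Between the wild-type groups, *Adam10*, a protease that sheds receptor ectodomains, was higher in the *Nova1* litters (0.49, SE 0.088, adjusted p = 0.0301). *Rock1*, a kinase that acts on the contractile cytoskeleton, and *Nck2*, an adaptor that binds DCC, followed at 0.29 (adjusted p = 0.0553) and -0.32 (adjusted p = 0.0571).

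The genes whose levels ran most like each member over the 12 cortices were found by Pearson's r of log2 CPM among 16209 genes. The 12 mice share litters, groups and library composition, so r is a description. *Unc5b* ran most like *Upf1* (r = 0.957), *Flt1* (0.948) and *Nckap5* (0.944). *Flt1*, a receptor of vascular endothelial growth factor, is one of the 10 endothelial markers, and *Upf1* is a helicase of nonsense-mediated decay. *Neo1* ran most like *Pcdhgc4* (0.960), *Wdr6* (0.958) and *Baiap3* (0.957), and *Dcc* most like *Zfhx4* (0.911), *Prss23* (0.908) and *Itga11* (0.906). For the other 7 genes the closest was *Clnk* for *Unc5a* (0.897), *Trim25* for *Unc5c* (0.910), *Fsip1* for *Unc5d* (0.899), *G0s2* for *Ntn1* (0.907), *Pafah2* for *Ntn4* (0.880), *Slc41a3* for *Rgma* (0.901) and *Cyp2s1* for *Rgmb* (0.926).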

How the data were processed

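Libraries were TruSeq preparations of total RNA from E18.5 cortex after removal of ribosomal RNA, read from both ends. Alignment by the authors was to mm10, with OLego, and they deposited expected counts per gene symbol, not normalized, of 12 cortices. The counting program and its annotation are not given in the sources used here. The submitters' processing notes name edgeR and mm9. A further deposited table holds *Δ*I, a difference of inclusion fractions, with 1 value per event and comparison and coordinates converted to mm9. Both tables also carry the authors' FDR values, and the count table their log2 fold changes, none of which were used. The sign of *Δ*I was read as wild-type minus knockout from the direction the study describes for exons. Event types are named from the table's codes (cass, taca, mutx, alt3).

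Groups follow genotype, region and number as labelled, with wild-type mice 1 to 3 assigned to the *Nova2* litters and 4 to 6 to the *Nova1* litters. The methods call the samples biological replicates of littermates. Expected counts were rounded to whole numbers. edgeR 4.0.16 in R 4.3.3 was run with TMM normalization, its default filter on low counts (filterByExpr), the quasi-likelihood test and Benjamini-Hochberg adjustment over all genes tested. Called means an adjusted p below 0.05 at any fold. Each fit used the 6 mice compared, and all 12 for the difference between knockouts. CPM uses TMM-scaled totals. RPKM divides CPM by the exonic length in GENCODE M1 (mm9), which may differ from the authors' annotation. Errors are SDs over 3 mice or standard errors of the fit. Total counts of 16518172 to 31362018 per mouse set the counting precision.

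YCAY motifs were counted in NCBIM37 (mm9). Alternatives were other filters, upper-quartile normalization, DESeq2 1.42.0, a fold threshold, each mouse left out, a replicate block, all 12 mice in one fit, and 100 nt flanks. The test was tested on simulated counts, where it recovered 70 of 100 genes changed by a log2 fold of 1 in the *Nova2-/-* comparison (15563 genes). In the same run it recovered 88 of 100 genes changed by a log2 fold of 2, and it called 17 genes that were not changed. Smaller folds were not simulated. Figures and tables used Python 3.11.15, pandas 2.3.3 and matplotlib 3.10.9.

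The 10 genes and the pathway lists were chosen with earlier results of these data known. The genes named are the 10, the targeted genes, the pathway genes that passed or the 3 with the smallest p per comparison, pathway genes with an event, markers needed to describe a list, and the 3 genes with the highest correlation to each of the 10. No amino acid sequence was used here, and no sequence of *Dcc* is shown. The events of 1 pathway gene are not reported here, and stay in the counts over the list.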

Additional observations from a re-analysis of the deposited data

How the results depend on the processing

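Counts of the 10 genes called stayed at 0 in every comparison without a filter beyond 1 count, with at least 10 counts in every sample, with upper-quartile normalization and with a fold threshold of 1. In *Nova2-/-* they were 1 with DESeq2 and 2 with all 12 mice in one fit, and in the difference between the knockouts 1 with DESeq2. Of the 74 pathway genes, DESeq2 called 3 in *Nova2-/-*, 13 between the wild-type groups and 6 in the difference. The fit of all 12 mice called 9 in *Nova2-/-*, against 8.23% of all genes, and 13 between the wild-type groups. Between the wild-type groups there were 5 without the filter, 2 with upper-quartile normalization and 0 with the fold threshold, and in the difference 1 each with at least 10 counts and with upper-quartile normalization. Where no share of all genes is given, these counts are not read as a result about the pathway genes. The cause of the changes in the counts was not tested.

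Leaving out each mouse in turn gave 0 to 4 of the 10 genes in *Nova2-/-*, 0 to 3 between the wild-type groups and 0 to 1 in the difference, and 0 to 11, 0 to 25 and 0 to 10 pathway genes. The highest counts came without the third wild-type mouse of the *Nova2* litters, except the 1 gene of the difference, which came without the second. Where this leaves a group of 2 mice, the spread is that of the fit.

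Of 540 log2 fold changes of the 10 genes under alternatives, 467 kept their direction and side of the threshold, 12 became called and 61 changed sign. None of the 10 genes was called in the main fits, so no call could be lost. For the same reason, a change of sign could only concern a difference not called in the main fit. With DESeq2 the *Nova2-/-* values of *Unc5a* and *Unc5d* became -0.0044 and -0.0030, and with all 12 mice in one fit -0.0090 and -0.0085. *Rgmb* in *Nova1-/-* became 0.00066 with at least 10 counts and 0.0011 with upper-quartile normalization. In the difference, *Unc5a* and *Unc5c* became 0.0052 and 0.0065 without the filter, 0.016 and 0.017 with upper-quartile normalization, and 0.0023 and 0.0037 with DESeq2. With a mouse left out, the ranges in *Nova2-/-* were -0.21 to 0.056 for *Neo1*, -0.15 to 0.084 for *Unc5a*, -0.0047 to 0.26 for *Unc5c*, -0.068 to 0.075 for *Unc5d* and -0.030 to 0.081 for *Rgmb*. The ranges in *Nova1-/-* were -0.11 to 0.11 for *Unc5a*, -0.14 to 0.073 for *Ntn4* and -0.041 to 0.038 for *Rgmb*. The ranges between the wild-type groups were -0.067 to 0.20 for *Neo1*, -0.10 to 0.12 for *Unc5a*, -0.19 to 0.026 for *Unc5b*, -0.023 to 0.24 for *Unc5c*, -0.058 to 0.081 for *Unc5d*, -0.080 to 0.24 for *Ntn1*, -0.21 to 0.020 for *Ntn4*, -0.080 to 0.014 for *Rgma* and -0.056 to 0.029 for *Rgmb*. The ranges in the difference were -0.13 to 0.12 for *Unc5a*, -0.084 to 0.18 for *Unc5c* and -0.019 to 0.097 for *Rgmb*.

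In *Nova2-/-*, a replicate block on the mouse number gave 0 of the 10 genes and 0 pathway genes, with 220 calls over all genes against 166 without it. Mice of the same number correlated at 0.109, 0.0213 and 0.189 in their deviations from the group means. Wild-type mouse 1 correlated best with *Nova2-/-* mouse 2 (0.139). Wild-type mice 2 and 3 each correlated best with the *Nova2-/-* mouse of the same number. With deviations from means of 3 mice, these values cannot decide whether mice of the same number were paired. With flanks of 100 nt in place of 200 nt, the share of internal exons with as many YCAY motifs in both flanks went from 62.3% to 82.0% for *Neo1* and from 34.6% to 40.8% for *Dcc*.

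*Δ*I came without read counts or replicates, so the depth behind the splicing values is unknown. Of the 10 genes, *Ntn4* had the fewest reads, at 137 to 228 counts per mouse.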

Other observations

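Of the 74 other pathway genes, 10 had events in the splicing table, 40 events in all. These events too were chosen by the authors on the *Nova2-/-* values. *Ablim1*, a LIM protein that binds actin and acts in axon guidance, had 7 events. Its 5 cassette and tandem cassette events ran from -0.453 to 0.188 in *Nova2-/-* cortex, and 2 of mutually exclusive exons, where only the size is read, had sizes of 0.379 and 0.415. *Pak3*, a kinase downstream of Rac, had 6 events, the largest in size at -0.460 (mutually exclusive exons), with its cassette and tandem cassette events from -0.231 to 0.302, and 2 of the 6 also exceeded 0.1 in size in *Nova1-/-* cortex, at 0.175 (mutually exclusive exons) and -0.200. Those were the only ones of the 40 to do so, against 11.1% of all events.

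*Arhgef12*, which encodes LARG, a guanine nucleotide exchange factor downstream of RGM signals, had 9 events. The 8 cassette and tandem cassette events all had negative *Δ*I in *Nova2-/-* cortex, from -0.239 to -0.107, and lie over the same span. The 1 of mutually exclusive exons, read for its size only, had -0.291. In *Nova1-/-* cortex the 9 lay between -9.91e-05 and 0.0101. *Rock1*, a kinase that acts on the contractile cytoskeleton, had 1 cassette event with a *Δ*I of 0.298 in *Nova2-/-* cortex, and 0.0789 (cortex) and 0.195 (midbrain and hindbrain) in *Nova1-/-* mice. *Ptk2*, the focal adhesion kinase that binds the cytoplasmic part of DCC and neogenin, had 4 events between -0.167 and 0.186 in *Nova2-/-* cortex and between -0.144 and -0.0999 in *Nova1-/-* midbrain and hindbrain. *Adgrl3*, a latrophilin that binds the UNC5 ligands of the FLRT family, had 7 events, all with positive *Δ*I in *Nova2-/-* cortex, from 0.124 to 0.351.

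*Acvr2a*, a BMP and activin receptor, had 1 at -0.318, *Elmo2*, a partner of DOCK1, 1 at -0.232, and *Magi1*, a scaffold protein of cell junctions, 1 at 0.168. In *Nova1-/-* midbrain and hindbrain 7 of the 40 events, 17.5%, reached a size of 0.1, against 15.9% of all events.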
